A study of Mus musculus with 4 samples.

Results

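The 14-3-3 protein family is encoded in the mouse by 7 genes, Ywhab, Ywhae, Ywhag, Ywhah, Ywhaq, Ywhaz and Sfn, which were taken by name from the 53465 genes of the count table. All 7 were in the table, and 6 passed the filter on low counts and were tested; Sfn did not. Polyadenylated RNA had been sequenced from libraries labelled MLE-12, a mouse lung line that the study's design text equates with alveolar epithelial type 2 cells. The treated libraries came from cells that received 5 µM 1-nitropyrene, a nitrated polycyclic hydrocarbon of diesel exhaust, for 12 h (replicates 2 and 3), and the controls from cells kept without it (replicates 1 and 2), with n = 2 libraries per group. The study's stated aim was the effect of the compound on translation of Fbxw7 mRNA, and the counts used here measured RNA levels only. All 4 libraries were labelled as 1 cell line, and the labels did not say whether they came from separate cultures, so p-values measured only the spread between these libraries, which may be technical.

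14-3-3 proteins are small acidic proteins that form dimers and bind other proteins, called clients, at short stretches holding a phosphorylated serine or threonine. Binding can hold a client in the cytoplasm, hide or expose a site, or keep an enzyme in its inactive form, and through this the family takes part in cell cycle checkpoints, growth factor signalling, apoptosis and control of the cytoskeleton. Ywhab, Ywhae, Ywhag, Ywhah, Ywhaq and Ywhaz encode the beta, epsilon, gamma, eta, theta and zeta proteins, which are made in most tissues. Sfn encodes the sigma protein, stratifin, which is known mainly from epithelial cells, is induced by p53 and helps to hold cells in G2 after DNA damage.

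Total counts ranged from 6908055 to 10773733 per library, so that 3 counts, taken here as the floor for a count of 0, corresponded to 0.276 to 0.430 CPM. Unless stated otherwise, levels are CPM, read counts scaled to library size with TMM factors, given as mean ± SD with n = 2. Of 12 lung epithelial markers 9 had 0 counts in all 4 libraries, among them Sftpb, Nkx2-1, Cdh1, Epcam and Krt8, and only Abca3 was tested. Of 7 fibroblast markers none was at 0 in all libraries. Their summed level was 1.06 to 1.84 CPM with 1-nitropyrene and 3.87 to 7.27 CPM in controls. Only Pdgfra among them had enough counts to be tested, with 7 and 6 under 1-nitropyrene and 23 and 8 in controls. It was not called (adjusted p = 0.118, edgeR). Gm42418, a noncoding locus listed as lincRNA, took 354634 and 360530 CPM with 1-nitropyrene and 363735 and 360600 CPM in controls. No gene took more. It was grouped with the ribosomal RNA loci that an alternative fit left out. Whether its reads came from ribosomal RNA was not tested. Macrophage and endothelial markers summed to at most 0.287 CPM in any library. The part of other cells in the results below was not tested. In RNA from whole cultures, fewer cells of a type and less RNA per cell cannot be told apart.

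In the coding sequences of the 7 genes, aligned with mafft, the 21 pairs were between 59.8% and 79.0% identical, with Ywhag and Ywhah the closest pair and Ywhae and Sfn the most distant. No window of 50 bases of a member's transcript recurred in the transcript of another member. The stretch below was chosen by a script as the 45 coding bases, free of gaps and within a single exon in every gene, with the most positions alike in all 7. It shows how far the family differs even where it is most alike: 28 positions were shared by all and 17 were not. Bases that differ among the genes are in capitals, and sequences are from GENCODE M21 transcripts on GRCm38, read 5′ to 3′ on the gene's strand.
Ywhae: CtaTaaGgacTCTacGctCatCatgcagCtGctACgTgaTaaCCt
Ywhaq: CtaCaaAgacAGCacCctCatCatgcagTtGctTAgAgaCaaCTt
Ywhaz: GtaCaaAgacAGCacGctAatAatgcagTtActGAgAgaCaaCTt
Ywhah: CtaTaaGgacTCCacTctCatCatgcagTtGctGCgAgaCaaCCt
Ywhag: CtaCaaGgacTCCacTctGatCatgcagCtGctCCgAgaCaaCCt
Ywhab: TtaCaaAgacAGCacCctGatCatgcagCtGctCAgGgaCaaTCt
Sfn: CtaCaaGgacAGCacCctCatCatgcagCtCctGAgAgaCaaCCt
These lie at chr11:75759352-75759396 (+) for Ywhae, chr12:21394969-21395013 (-) for Ywhaq, chr15:36775243-36775287 (-) for Ywhaz, chr5:33027099-33027143 (+) for Ywhah, chr5:135911050-135911094 (-) for Ywhag, chr2:164016150-164016194 (+) for Ywhab and chr4:133601090-133601134 (-) for Sfn.

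The family was dominated by a single gene. Per kilobase of annotated exon, Ywhae stood at 1385 and 1393 CPM per kb in the 1-nitropyrene libraries and at 1230 and 1257 CPM per kb in the controls. That placed it between rank 5 and rank 6 of 6738 tested protein-coding genes in every library. Ywhaq followed at 104 and 105 CPM per kb with 1-nitropyrene and 94.1 and 87.7 in controls. Ywhah was at 72.0 and 74.1 CPM per kb with 1-nitropyrene and 78.1 and 72.8 in controls. Ywhaz was at 59.7 and 59.3 CPM per kb with 1-nitropyrene and 50.4 and 53.2 in controls. On these counts the ranges of the 4 genes did not overlap within either group, so their order per length was the same in all libraries. The order of Ywhah and Ywhaz depended on the pseudogene copies described below. With copies added, Ywhaz had 2917 and 2856 counts over 4118 bp with 1-nitropyrene and Ywhah 2562 and 2535 over 3709 bp. Ywhaz was then the higher per length. In controls Ywhaz, at 3128 and 2160 counts, stayed lower per length than Ywhah, at 3464 and 2072. On CPM, which is not divided by length, Ywhaq and Ywhah overlapped in the controls, at 288 and 269 CPM for Ywhaq and 290 and 270 CPM for Ywhah.

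The other members were far lower. Ywhag was at 9.35 and 9.72 CPM per kb with 1-nitropyrene and 10.4 and 10.7 in controls. Ywhab was at 0.544 and 1.08 CPM per kb with 1-nitropyrene and 0.789 and 0.805 in controls, between rank 5051 and rank 5818 of 6738. Sfn, which has a single exon (chr4:133600556-133602168, -), had 1 and 3 counts in the 1-nitropyrene libraries and 4 and 0 counts in the controls, at or near the floor of 3 counts in each, so no fold change is given. None of the 50-base windows of Ywhab recurred in an annotated transcript of another gene.

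**Figure D1:**
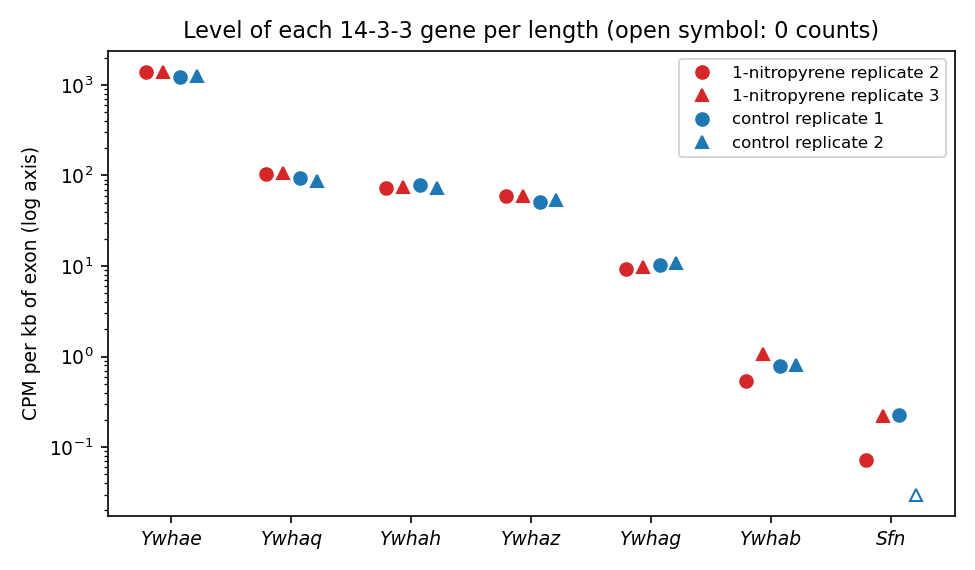
Level of each 14-3-3 gene in each of the 4 libraries, in CPM per kb of annotated exon on a log axis; circles and triangles mark the replicates of each group, and the open symbol marks 0 counts. Ywhae stands at 1230 CPM per kb or more in all 4 libraries, and Sfn rests on at most 4 counts.

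Summed over the family, 4443 and 4476 CPM were counted in the 1-nitropyrene libraries and 4005 and 4047 CPM in the controls. The groups did not overlap, and the ratio of the means was 1.11. Without Ywhae the sums were 886 and 899 CPM with 1-nitropyrene and 845 and 820 CPM in controls. Per length, Ywhae made up 84.9% ± 0.0805 of the family with 1-nitropyrene and 84.4% ± 0.545 in controls (SD, n = 2 each), and the ranges overlapped. The share of Ywhah was 4.46% ± 0.0690 with 1-nitropyrene and 5.12% ± 0.295 in controls, and that of Ywhag 0.582% ± 0.0133 with 1-nitropyrene and 0.715% ± 0.0102 in controls, both lower without overlap. The share of Ywhaz was 3.66% and 3.61% with 1-nitropyrene and 3.44% and 3.59% in controls, higher without overlap. Those of Ywhaq and Ywhab overlapped. These shares leave out the pseudogene copies described below. Gm4202, a copy of Ywhaz, drew counts equal to 36.4% and 37.4% of those of Ywhaz with 1-nitropyrene and 38.7% and 41.2% in controls. With copies added, the Ywhaz share overlapped between the groups. With 2 libraries against 2 an exact permutation test cannot go below a two-sided p of 0.333, so shares and sums are given without a test.

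The comparison of 1-nitropyrene with control asked which members changed their RNA level. Ywhae, Ywhaq and Ywhaz rose 1.12- to 1.15-fold, and Ywhah, Ywhag and Ywhab did not pass the test. Of the 6 members tested, 3 were called higher and 0 lower, where 13.2% of the 7738 tested genes were called higher and 11.2% lower, 24.5% in all (edgeR's quasi-likelihood test, Benjamini-Hochberg adjusted p under 0.05). The median log2 fold change was 0.09 over the 6 members and -0.0035 over all tested genes. The rises were smaller than the median change of all called genes, 1.29-fold in either direction.

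Ywhae (chr11:75732869-75765845, +), whose epsilon protein pairs mostly with other members, had 3557 and 3577 CPM in the 1-nitropyrene libraries and 3160 and 3228 CPM in the controls. Both treated libraries lay above both controls, as they did in 30% of all tested genes. The log2 fold change was 0.16 (SE 0.02, adjusted p = 2.28e-13, edgeR), a ratio of 1.12 with a 95% interval of 1.09 to 1.15. On the log2 scale the replicates differed from each other by 0.0082 with 1-nitropyrene and 0.0307 in controls.

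Ywhaq, the theta gene (chr12:21390071-21417637, -), had 320 and 322 CPM with 1-nitropyrene and 288 and 269 CPM in controls. The groups did not overlap, with the treated libraries higher as in 30% of all tested genes, and the log2 fold change was 0.20 (SE 0.04, adjusted p = 7.83e-06, edgeR), a ratio of 1.15 (95% interval 1.09 to 1.21). The 2 controls differed by 0.101 on the log2 scale. Without control replicate 2 the log2 fold change was 0.15 (adjusted p = 0.0159, edgeR). Ywhaq shares 248 bp of exon with the antisense gene Gm4419, and whether the authors counted reads by strand is not given in the sources used here. Gm4419 itself had 677 and 698 counts with 1-nitropyrene and 898 and 509 counts in controls, and was not called (log2 fold change 0.02, SE 0.07, adjusted p = 0.847, edgeR).

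Ywhaz, the zeta gene (chr15:36770770-36796929, -), had 246 and 244 CPM with 1-nitropyrene and 207 and 219 CPM in controls. The treated libraries lay above both controls, again as in 30% of all tested genes. The log2 fold change was 0.20 (SE 0.04, adjusted p = 4.66e-05, edgeR), a ratio of 1.15 (95% interval 1.09 to 1.22). Without control replicate 1 it was 0.16 with an adjusted p of 0.0449 (edgeR), close to the threshold.

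Ywhah, the eta gene (chr5:33018816-33027966, +), had 267 and 275 CPM with 1-nitropyrene and 290 and 270 CPM in controls, and the groups overlapped. Its log2 fold change was -0.05 (SE 0.04, adjusted p = 0.404, edgeR), with a ratio between 0.913 and 1.02 at the 95% level. Ywhag, the gamma gene (chr5:135908409-135934616, -), had 51.4 and 53.5 CPM with 1-nitropyrene and 57.0 and 58.9 CPM in controls. Both treated libraries lay below both controls, as they did in 29.2% of tested genes, and the difference did not pass the test (log2 fold change -0.14, SE 0.08, adjusted p = 0.220, edgeR; 95% interval of the ratio 0.811 to 1.01).

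Ywhab, the beta gene (chr2:163994960-164018588, +), had 16 and 31 counts in the 1-nitropyrene libraries and 29 and 19 counts in the controls, or 1.84 and 3.64 CPM with 1-nitropyrene and 2.67 and 2.72 CPM in controls. The treated libraries differed from each other by 0.985 on the log2 scale and lay on either side of the controls. The log2 fold change was 0.02 (SE 0.37, adjusted p = 0.976, edgeR). The 95% interval of the ratio, 0.612 to 1.69, leaves room for a fall or a rise within these bounds. Such standard errors and intervals rest on a spread pooled over all genes and not on each gene's own replicates.

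**Figure D2:**
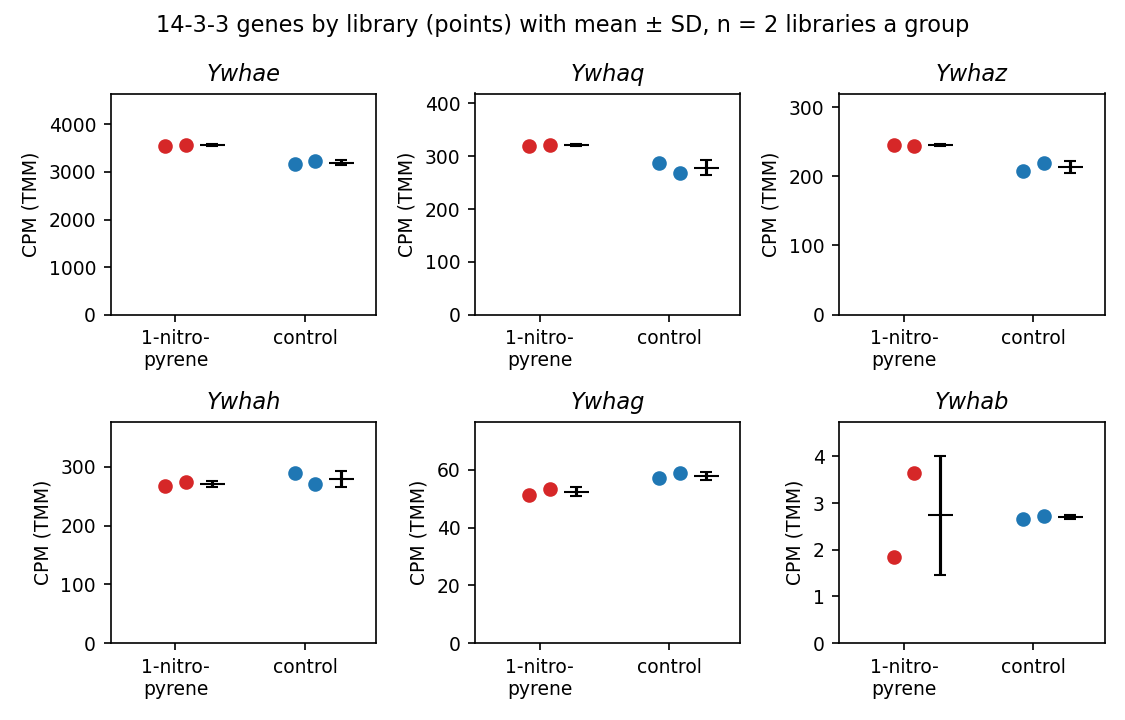
Level in CPM of the 6 tested 14-3-3 genes in each library (points), with the mean and SD of the 2 libraries of each group beside them; every axis starts at 0. The 1-nitropyrene points of Ywhae, Ywhaq and Ywhaz lie above both controls, those of Ywhag lie below, and those of Ywhah and Ywhab overlap with the controls; of all tested genes, 30% lie above and 29.2% below in this way.

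**Figure D3:**
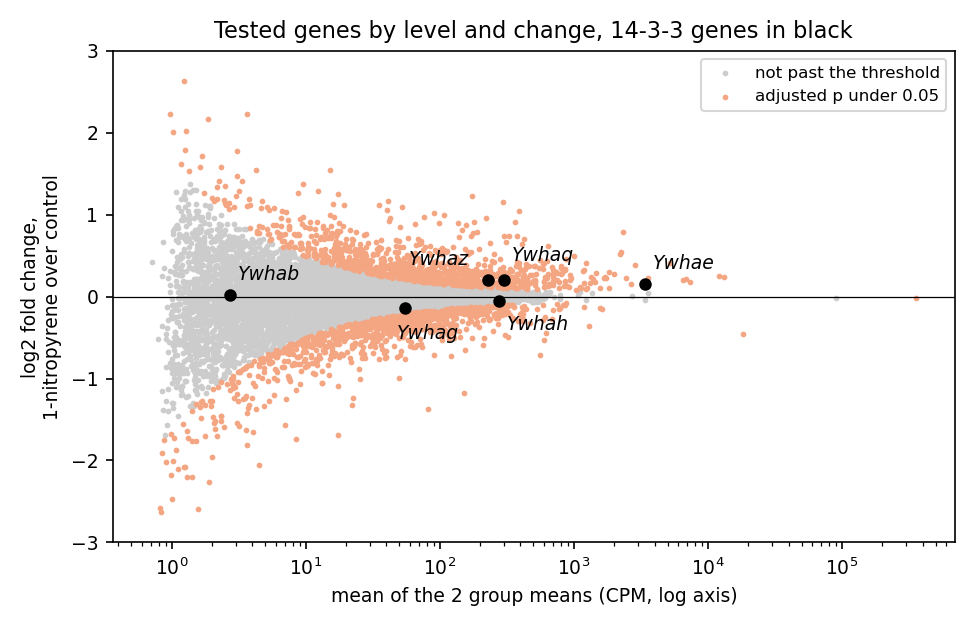
Mean level (CPM, log axis) against log2 fold change for the 7738 tested genes, with the 14-3-3 genes in black and called genes in orange. Ywhae, at a log2 fold change of 0.16, is among the most abundant genes, and Ywhab sits where differences of this size are not called.

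Within a library, counts of the 3 genes called higher were set against those of Ywhah. The ratio of Ywhae to Ywhah counts was 13.3 and 13.0 with 1-nitropyrene and 10.9 and 11.9 in controls. The ratio of Ywhaq to Ywhah counts was 1.20 and 1.17 with 1-nitropyrene and 0.995 and 0.994 in controls, and that of Ywhaz to Ywhah 0.920 and 0.888 with 1-nitropyrene and 0.716 and 0.812 in controls. These ratios do not depend on the scaling of libraries. None of the 3 overlapped between groups, but the genes on top were chosen because they were called higher and Ywhah because it was not, so this restates the calls. Between 2 genes called higher, the ratio of Ywhae to Ywhaz was 14.5 and 14.6 with 1-nitropyrene and 15.2 and 14.7 in controls. These did not overlap, with means in a ratio of 0.972, but they leave out the pseudogene copies described below. With copies added to their genes, the ratio of Ywhae to Ywhaz overlapped between the groups.

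Processed pseudogenes, intronless copies of an mRNA inserted elsewhere in the genome, drew counts of their own. A search of annotated transcripts with blastn (at least 300 aligned bases at 80% identity) found 14 pseudogene copies, 8 closest to Ywhaq, 3 to Sfn, 2 to Ywhah and 1 to Ywhaz, and none closest to Ywhae, Ywhag or Ywhab. Of these, 4 reached 10 counts in a library. In windows of 100 bases, 21.2% of the Ywhaq transcript, 16.9% of Ywhaz and 6.9% of Ywhah recurred exactly in a copy, against 0.0% of Ywhae, Ywhag and Ywhab. The sources used here do not give how reads that map to several places were counted, and counts of Ywhaq, Ywhaz, Ywhah and their copies may be divided between them.

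Gm4202, the Ywhaz copy at chr3:92689426-92690158 (+), had 0 mismatches to the coding sequence of Ywhaz over 732 aligned bases. The 60 bases shown next stand in both genes, at chr15:36790917-36790976 (-) in Ywhaz and chr3:92689426-92689485 (+) in Gm4202, so that a read from within them matches both.
Ywhaz and Gm4202: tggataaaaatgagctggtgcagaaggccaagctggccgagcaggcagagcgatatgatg
Gm4202 had 779 and 777 counts with 1-nitropyrene and 873 and 630 counts in controls, or 36.4% and 37.4% of the Ywhaz counts with 1-nitropyrene and 38.7% and 41.2% in controls. Its log2 fold change was 0.10 (SE 0.07, adjusted p = 0.303, edgeR), and the groups overlapped.

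The copies of Ywhaq and Ywhah carry more differences. Gm10608 had 15 mismatches to Ywhaq over 675 aligned bases, and Gm12428 had 7 to Ywhah over 717. The 60-base stretches below hold the most mismatches of each pair, in capitals, and mark where a read can be told apart; between Ywhaq and Gm10608 they are A224C, T246A, C247T, A251G and G261A, and between Ywhah and Gm12428 A208G and T235C, counted from 1 at the first coding base of the gene, with the gene's base first.
Ywhaq, chr12:21416831-21416890 (-): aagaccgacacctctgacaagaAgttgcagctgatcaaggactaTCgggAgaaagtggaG
Gm10608, chr9:119162871-119162930 (+): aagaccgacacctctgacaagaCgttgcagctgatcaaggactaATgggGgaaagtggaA
Ywhah, chr5:33026632-33026691 (+): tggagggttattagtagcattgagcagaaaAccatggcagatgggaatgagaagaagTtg
Gm12428, chr3:98821194-98821253 (+): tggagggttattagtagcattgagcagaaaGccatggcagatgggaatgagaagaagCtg
Gm10608 had 21.5 and 21.2 CPM with 1-nitropyrene and 16.2 and 17.5 CPM in controls (log2 fold change 0.35, SE 0.14, adjusted p = 0.0507, edgeR). Its groups did not overlap, with the treated libraries higher as in 30% of all tested genes. Gm21178, the other counted copy of Ywhaq, had 28.4 and 35.1 CPM with 1-nitropyrene and 29.0 and 26.2 CPM in controls (0.19, SE 0.11, adjusted p = 0.229, edgeR). Gm12428 had 27.5 and 22.9 CPM with 1-nitropyrene and 29.1 and 26.8 CPM in controls (-0.16, SE 0.12, adjusted p = 0.360, edgeR). Of the 4 copies 0 were called. With the counts of all copies added to their genes, Ywhaq rose by 0.21 (SE 0.04, adjusted p = 8.52e-07) and Ywhaz by 0.17 (SE 0.04, adjusted p = 0.000119), and Ywhah stood at -0.06 (SE 0.04, adjusted p = 0.294, all edgeR).

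**Figure D4:**
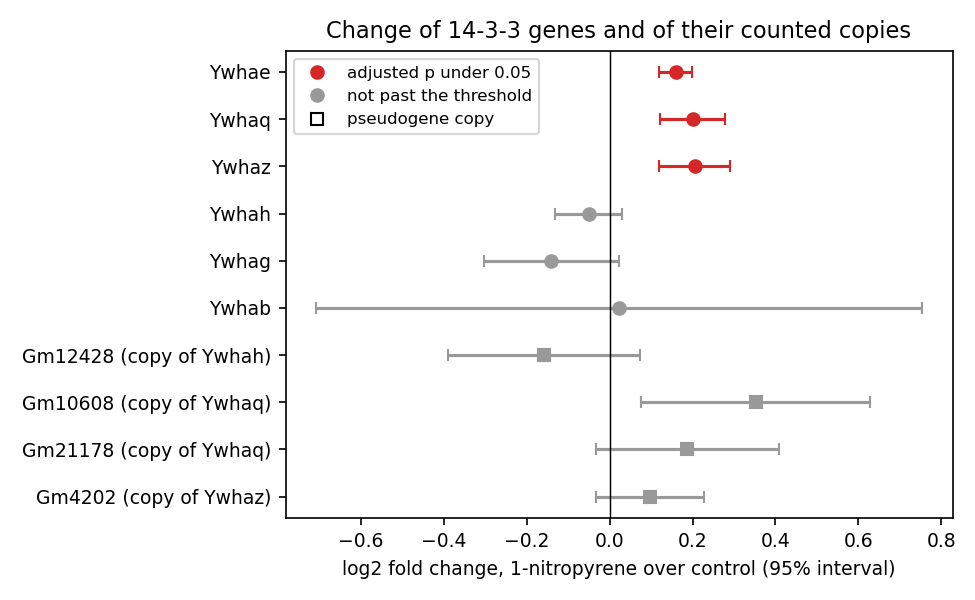
Log2 fold change of 1-nitropyrene over control with its 95% interval for the 6 tested 14-3-3 genes (circles) and the 4 pseudogene copies with at least 10 counts (squares); red marks an adjusted p under 0.05. Ywhae, Ywhaq and Ywhaz lie between 0.16 and 0.20, and no copy is past the threshold.

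RefSeq promoter windows (250 bases before to 50 after the start, build GRCm38.p6) were at hand for 5 of the 7 genes, Ywhae, Ywhaq, Ywhah, Ywhag and Sfn. They are shown for 2 genes that rose, Ywhae and Ywhaq, and 2 that did not pass the test, Ywhah and Ywhag, to set their content side by side. Capitals mark matches on either strand to GGGCGG (the GC box), CCAAT, TGACGTCA (the cAMP response element), GCGTG (the core bound by the Ah receptor) and TATAAA. Each of the matches of GGGCGG in the Ywhah window overlaps another, and in the Ywhag window GCGTG and CCAAT lie side by side without overlap.
Ywhae promoter, chr11:75732637-75732936 (+): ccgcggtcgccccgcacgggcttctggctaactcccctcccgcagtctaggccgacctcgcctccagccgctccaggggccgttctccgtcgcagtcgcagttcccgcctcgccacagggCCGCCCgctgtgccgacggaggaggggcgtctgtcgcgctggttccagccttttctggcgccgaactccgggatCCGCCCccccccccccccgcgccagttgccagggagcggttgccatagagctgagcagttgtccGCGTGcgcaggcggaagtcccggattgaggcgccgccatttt
Ywhaq promoter, chr12:21417387-21417686 (-): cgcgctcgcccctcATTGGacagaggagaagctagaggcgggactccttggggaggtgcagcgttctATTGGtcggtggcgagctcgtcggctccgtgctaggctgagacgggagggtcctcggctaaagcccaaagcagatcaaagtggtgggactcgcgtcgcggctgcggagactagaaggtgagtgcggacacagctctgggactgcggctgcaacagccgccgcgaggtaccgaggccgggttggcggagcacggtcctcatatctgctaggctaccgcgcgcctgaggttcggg
Ywhah promoter, chr5:33018566-33018865 (+): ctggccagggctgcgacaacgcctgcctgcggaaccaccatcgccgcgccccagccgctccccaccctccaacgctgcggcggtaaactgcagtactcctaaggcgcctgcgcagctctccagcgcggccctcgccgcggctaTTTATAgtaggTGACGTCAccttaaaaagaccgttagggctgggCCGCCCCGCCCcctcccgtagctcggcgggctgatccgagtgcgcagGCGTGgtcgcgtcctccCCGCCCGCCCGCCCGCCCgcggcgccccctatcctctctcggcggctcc
Ywhag promoter, chr5:135934592-135934891 (-): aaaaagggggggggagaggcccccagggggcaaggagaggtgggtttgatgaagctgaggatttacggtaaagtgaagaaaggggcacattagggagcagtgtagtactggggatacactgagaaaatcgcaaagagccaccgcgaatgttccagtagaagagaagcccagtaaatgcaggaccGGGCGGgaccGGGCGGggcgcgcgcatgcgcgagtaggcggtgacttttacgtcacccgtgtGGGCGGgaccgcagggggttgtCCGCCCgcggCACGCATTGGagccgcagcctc
Of 32851 promoter windows of the same length, 35.7% held GGGCGG, 37.4% CCAAT, 1.8% TGACGTCA, 32.4% GCGTG and 13.6% TATAAA. The Ywhae window held 2 matches of GGGCGG and 1 of GCGTG, and that of Ywhaq 2 of CCAAT and none of the others. The Ywhah window held 6 of GGGCGG and 1 each of TGACGTCA, GCGTG and TATAAA, and that of Ywhag 4 of GGGCGG and 1 each of CCAAT and GCGTG. No motif was held by both Ywhae and Ywhaq in these windows. The GENCODE gene of Ywhaq, on the minus strand, begins at 21417637, so most of its RefSeq window lies inside that gene. All 4 windows were rich in CpG, with 36 in Ywhae, 30 in Ywhaq, 38 in Ywhah and 23 in Ywhag against a median of 7 over all windows, while that of Sfn held 4. These matches are letters only and show no binding.

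The expression profiles closest to the 3 called genes were sought among 4298 other protein-coding genes with at least 10 CPM, by the Euclidean distance of centred log2 CPM over the 4 libraries. Closest to Ywhae were Eif5, a translation initiation factor (distance 0.0061, against a median of 0.253 over all genes), and Clpp, a mitochondrial protease (0.0137). Itpr1, a calcium release channel (0.0081), and Actl6a, a chromatin remodelling subunit (0.0183), were closest to Ywhaq. Pdzd11 (0.0194) and Hnrnpk, an RNA-binding protein (0.0210), were closest to Ywhaz. With 4 libraries such likeness is a description only.

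Genes whose proteins work with the family were examined in 7 lists holding 101 genes, of which 84 were tested. Of these, 10 rose and 13 fell, 11.9% and 15.5% of those tested, beside the 13.2% and 11.2% of all genes. The median log2 fold change was -0.0087 over the 84 genes and -0.0035 over all tested genes. Of the 23 called genes 7 kept their call in all 16 alternative settings, Cdkn1b, Araf, Zfp36l1, Arhgap21, Akt1, Akt2 and Rps6ka3, while 12 lost it in DESeq2. Opposite-strand genes share exon sequence with 6 of the 23: Araf, Arhgef2, Cfl1, Hdac4, Yap1 and Zfp36l1.

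Of 28 tested kinases that place the phosphate on 14-3-3 sites, 21 were not called, 3 were higher and 4 lower. These are 10.7% and 14.3% of the list, near the 13.2% and 11.2% of all tested genes. Akt1, which phosphorylates many clients, had 827 ± 11.2 CPM with 1-nitropyrene and 732 ± 16.4 CPM in controls (log2 fold change 0.18, SE 0.03, adjusted p = 6.06e-08, edgeR). Akt2 had 19.7 ± 1.45 CPM with 1-nitropyrene and 11.6 ± 0.643 CPM in controls (0.77, SE 0.16). Pak1 had 27.3 ± 4.76 CPM with 1-nitropyrene and 19.1 ± 0.614 CPM in controls (0.51, SE 0.13), a call lost without 1-nitropyrene replicate 2 (adjusted p = 0.150, edgeR). The ribosomal S6 kinases Rps6ka3 and Rps6ka2 fell by 0.24 (SE 0.05) and 0.49 (SE 0.10) on the log2 scale, the second without a call when control replicate 1 was left out (adjusted p = 0.197, edgeR). The polarity kinases Mark1 and Mark2 fell by 0.34 (SE 0.10) and 0.19 (SE 0.05) on the log2 scale, and without 1-nitropyrene replicate 2 neither was called (adjusted p up to 0.0745 for Mark1 over the libraries left out and 0.0881 for Mark2, edgeR).

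Among clients in the cell cycle, 2 of 6 tested members rose and 1 fell. Over all tested genes, 13.2% were called higher and 11.2% lower. The CDK inhibitor Cdkn1b (p27) had 25.2 ± 0.849 CPM with 1-nitropyrene and 16.8 ± 1.21 CPM in controls (log2 fold change 0.60, SE 0.14, adjusted p = 0.000106, edgeR). The CDK-activating phosphatase Cdc25a had 42.4 ± 0.564 CPM with 1-nitropyrene and 33.4 ± 0.734 CPM in controls (0.35, SE 0.10), a call lost without control replicate 1 (adjusted p = 0.101, edgeR). Wee1, the kinase that opposes Cdc25 phosphatases, fell by 0.34 on the log2 scale (SE 0.13, adjusted p = 0.0333, edgeR), and this call was lost with any 1 of the 4 libraries left out, with adjusted p-values up to 0.307. Cdc25b, at 10.8 ± 0.987 CPM with 1-nitropyrene and 10.1 ± 2.11 CPM in controls, did not pass the test (adjusted p = 0.878, edgeR). Nor did the checkpoint kinase Chek1, at 74.4 ± 1.71 CPM with 1-nitropyrene and 70.1 ± 0.958 CPM in controls (adjusted p = 0.425), or the tyrosine kinase Abl1 (0.612, both edgeR). Cdc25c and Trp53, the gene of p53, had 0 counts in all 4 libraries.

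Of 15 signalling clients tested, 1 rose and 0 fell, beside 13.2% and 11.2% of all tested genes, 24.5% in all. Araf, a kinase upstream of MEK and ERK, had 165 ± 0.214 CPM with 1-nitropyrene and 133 ± 5.73 CPM in controls (log2 fold change 0.30, SE 0.05, adjusted p = 1.9e-07, edgeR). The adaptors Irs2 and Sos1 and the glycolytic regulator Pfkfb2 were at 0.30 (SE 0.21), -0.09 (SE 0.08) and -0.24 (SE 0.26) and did not pass the test. None of the 4 apoptosis clients tested was called; Bad, which is kept from mitochondria while bound, had 12.5 ± 2.52 CPM with 1-nitropyrene and 13.8 ± 3.11 CPM in controls (adjusted p = 0.455, edgeR). Bcl2l11 (Bim), Aifm1 and Bax were at 0.27 (SE 0.29), -0.03 (SE 0.07) and 0.0015 (SE 0.20).

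Transcription and RNA clients had 1 of 15 tested members higher and 3 lower, beside 13.2% and 11.2% of all tested genes. Zfp36l1, which directs decay of AU-rich mRNAs, fell to 97.6 and 96.0 CPM with 1-nitropyrene, against 140.0 and 138 CPM in controls (log2 fold change -0.52, SE 0.06, adjusted p = 2.82e-17, edgeR), and Gm26669 on the other strand covers 1672 bp of its exons. The histone deacetylase Hdac4 fell to 27.0 ± 1.07 CPM, against 37.0 ± 2.22 CPM in controls (-0.47, SE 0.11), a call lost without control replicate 1 (adjusted p = 0.0541, edgeR). Hdac5 fell by 0.11 on the log2 scale (SE 0.04, adjusted p = 0.0333, edgeR), lost with any 1 library left out. The co-activator Yap1 had 18.9 ± 0.616 CPM with 1-nitropyrene and 13.4 ± 1.79 CPM in controls (0.46, SE 0.15, adjusted p = 0.0139, edgeR), a call that DESeq2 did not make (adjusted p = 0.164) and that was lost when 1-nitropyrene replicate 2 or control replicate 2 was left out (up to 0.170, edgeR). The glucose-sensing factor Mlxip was at -0.40 (SE 0.16, adjusted p = 0.0559, edgeR) and was not called. It had 10.2 and 14.5 CPM with 1-nitropyrene and 14.6 and 18.8 CPM in controls. Its treated libraries thus lay below both controls, as in 29.2% of all tested genes. Foxo1 and Foxo3, which 14-3-3 binding keeps out of the nucleus, did not pass the test, at -0.50 (SE 0.28) and -0.17 (SE 0.13).

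Cytoskeletal clients had 1 of 10 tested members higher and 5 lower, beside 13.2% and 11.2% of all tested genes. At a mean of at least 10 CPM, 1 of 7 was higher and 3 lower, beside 835 and 804 of all 4698 genes tested. In DESeq2, 0 of 8 were higher and 2 lower, beside 514 and 316 of 5487. Fewer cytoskeletal clients were called lower with any 1 library left out. Arhgap21, a GTPase-activating protein, fell to 41.0 ± 4.57 CPM with 1-nitropyrene, against 55.1 ± 3.54 CPM in controls (log2 fold change -0.42, SE 0.09, adjusted p = 3.57e-05, edgeR). Limk1, the kinase that inactivates cofilin, fell to 18.5 ± 5.13 CPM, against 27.7 ± 3.03 CPM in controls (-0.61, SE 0.13), and Cfl1, cofilin itself, had 235 ± 1.85 CPM with 1-nitropyrene and 209 ± 4.86 CPM in controls (0.17, SE 0.04). Without control replicate 1 or 1-nitropyrene replicate 2 Limk1 was not called (adjusted p up to 0.0858), nor was Cfl1 without control replicate 2 (0.0606, both edgeR). Arhgef2, a guanine nucleotide exchange factor, fell by 0.58 on the log2 scale (SE 0.20), and the kinesin Kif13b fell by 1.70 (SE 0.46) at 75 counts in all. Both calls were lost when single libraries were left out (adjusted p up to 0.179 and 0.109, edgeR), as was that of Ppp1r12a, a myosin phosphatase subunit (-0.15, SE 0.06, up to 0.541, edgeR).

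Among regulators of Sfn and of 14-3-3 binding, 2 of 7 tested members rose and 0 fell. Over all tested genes, 13.2% were called higher and 11.2% lower, 24.5% in all. DESeq2 called 0 members of this list higher. Mapk8 (JNK1), which phosphorylates 14-3-3 proteins and releases clients, had 68.9 ± 0.723 CPM with 1-nitropyrene and 57.0 ± 0.0748 CPM in controls (log2 fold change 0.27, SE 0.08, adjusted p = 0.00289, edgeR), and its call was lost in DESeq2 (adjusted p = 0.0959) and without control replicate 1 (0.0637, edgeR). Hdac6, a cytoplasmic deacetylase, had 21.9 ± 3.20 CPM with 1-nitropyrene and 16.7 ± 0.316 CPM in controls (0.40, SE 0.14), a call lost without control replicate 1 or 2 or without 1-nitropyrene replicate 2 (adjusted p up to 0.373, edgeR). Brca1 (0.36, SE 0.18), the ubiquitin ligase Cop1 (-0.07, SE 0.06) and Csnk1a1, casein kinase 1 alpha (0.03, SE 0.03), did not pass the test. Trim25, whose protein directs decay of the sigma protein, had 0 counts in both 1-nitropyrene libraries and 1 and 0 in the controls.

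**Figure D5:**
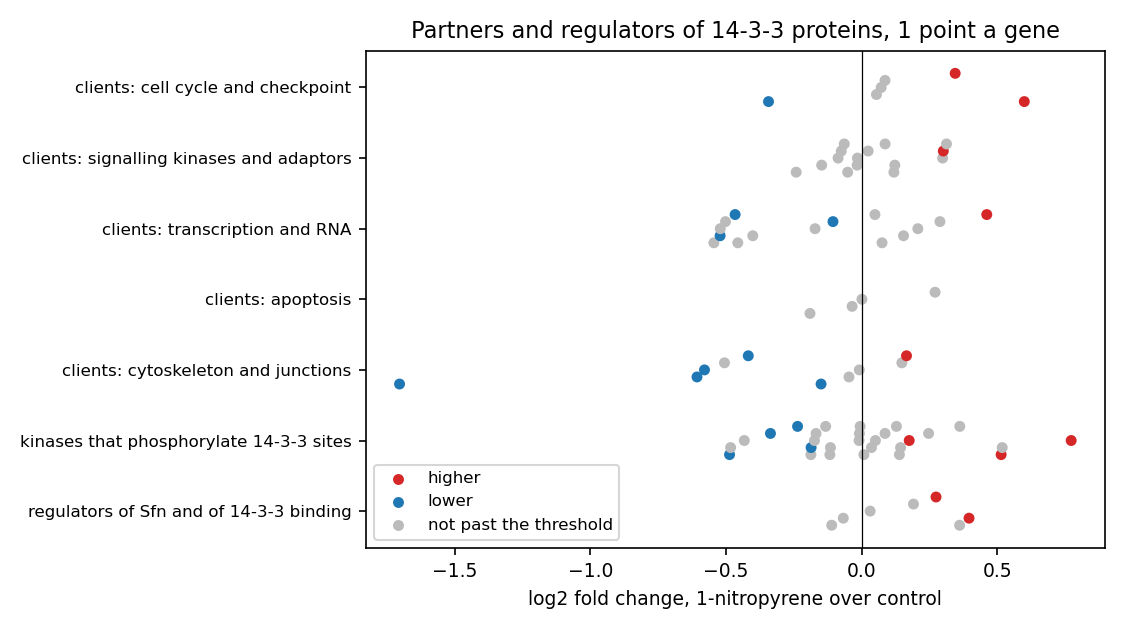
Log2 fold change of 1-nitropyrene over control for the tested genes of the 7 lists of 14-3-3 partners and regulators, 1 point a gene, coloured by whether the adjusted p was under 0.05 and in which direction. In the cytoskeletal list 5 of 10 points are called lower, beside 11.2% of all tested genes, and DESeq2 called 2 lower. In the apoptosis list none of 4 points is called, where 24.5% of all tested genes were called in either direction.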

How the data were processed

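Polyadenylated RNA of 4 libraries was sequenced from a stranded kit, per the labels' protocols. The deposited table holds raw read counts per gene from the authors, without normalization. Tools listed in the submitters' processing notes are HISAT2 2.1.0, featureCounts 1.6.3 and DESeq2, with the build GRCm38 (mm10), and no role is given for any. Symbols, positions and exon lengths are from GENCODE M21, which matched 53360 of 53465 identifiers.

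Counts were analysed in R 4.3.3 with edgeR 4.0.16 (filterByExpr, TMM factors of 0.989 to 1.01, quasi-likelihood test with legacy set to FALSE, common dispersion 0.000546) over 7738 genes, with an intercept and the treatment. edgeR estimated infinite prior degrees of freedom, so no gene was tested with the spread of its own replicates. The spread used was fitted over all genes, can differ with a gene's level, and is not set by the common dispersion alone. Standard errors are the absolute log2 fold change over the square root of F. Tests are two-sided; intervals are at 95% and, where they rest on counts, cover counting error and the pooled spread only. Simulated counts with known changes, drawn with the same dispersion for every gene, were also run. They do not copy the spread between these libraries, and no result here rests on them. DESeq2 1.42.0, limma 3.58.1 (voom), other scalings and filters, the copies added to their genes and each library left out were alternatives. Leaving out 1 library takes the remaining one of its group to be as variable as the other group's pair.

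Copies were found with blastn 2.17.0 and coding sequences aligned with mafft 7.526. Named genes are the members, up to 5 tested genes per list with the smallest p, further genes whatever their values (Cdc25a, Cdc25b, Cdc25c, Foxo1, Foxo3, Yap1, Bad, Trp53, and 1 that is not reported here), copies with at least 10 counts and the 2 nearest profiles of each called member. Gm42418, Gm4419, Trim25, Ppp1r12a, Mark1 and Mark2 were added after their values were seen. Members and lists were chosen with earlier results of these data known, so their directions are no independent evidence. Trp53, Chek1 and Map3k5 stand in 2 lists each.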

Additional observations from a re-analysis of the deposited data

How the results depend on the processing

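The rises of Ywhae, Ywhaq and Ywhaz kept their direction and their call in all 16, 17 and 17 alternatives run for them, with log2 fold changes of 0.13 to 0.17, 0.15 to 0.26 and 0.16 to 0.24 and the highest adjusted p-values at 1.59e-05, 0.0159 and 0.0449. Ywhag stayed below its control level, without a call, at -0.17 to -0.11. Ywhah, not called, was at -0.10 to 0.00 with 1 library left out and turned to 0.0039 without control replicate 1. Ywhab, at 47 and 48 counts per group, turned to -0.0073 without scaling factors and to -0.056 in limma-voom, and ranged from -0.54 to 0.44 with 1 library left out. DESeq2 gave it no adjusted p, and it was not tested at a mean of at least 10 CPM. The share of Ywhae in the family was 79.99% with 1-nitropyrene and 79.3% in controls on counts not divided by length.

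Over all genes, 1023 were called higher and 870 lower. DESeq2 called 514 and 316, and the number lower was 532 with no filter on low counts and 568 at an adjusted p under 0.01. With 1 library left out, 690 to 860 were called higher and 511 to 647 lower, the fewest without control replicate 1. In the lists, 191 of 224 recomputed counts stayed within 1.5 times the reported one. No paired analysis was possible because the groups share only replicate number 2. The depth limits Ywhab and Sfn. The causes were not tested.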
